A study of Mus musculus with 6 samples.

Results

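Regions in which only 3, 4 or 5 cytosine positions were read were examined in a reduced representation bisulfite sequencing (RRBS) data set of mouse quadriceps muscle. A region here is one stretch of 3000 bp that the deposited table keys to one RefSeq transcript. On the 19 autosomes, 1244 of all 10755 regions (11.6%) had 3 to 5 listed positions, and they held 4873 of 268725 positions (1.81%). Of these sparse regions, 452 had 3 positions, 443 had 4 and 349 had 5. Gene symbols were found for 1223 of them, giving 1217 distinct genes.

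Genomic DNA came from quadriceps of C57BL/6 mice, in 3 samples from exercised mice and 3 from sedentary mice that served as controls. The exercised mice ran on a motorised treadmill for 4 weeks, and tissue was taken 3 hours after the final session. Whether each sample is a separate animal is not stated in the labels, and every p-value here measures only the spread between samples, which may be technical. Whole muscle holds fibres together with vessels, nerve, fat, connective tissue and blood cells, and a methylation level is a share over the DNA of all of them.

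Methylation of cytosine in CpG dinucleotides is the main DNA mark of mammalian promoters. Promoters rich in CpG are usually unmethylated in most tissues whether or not the gene is used, while promoters poor in CpG are more often methylated where the gene is silent. Promoters of genes used in germ cells are a known case of methylation in body tissues. RRBS reads bisulfite-converted DNA next to cut sites of a restriction enzyme, commonly MspI, whose site is CCGG, so a region with few such sites yields few positions. In such libraries the ends of the cut fragments are usually repaired with added nucleotides before adapters are joined.

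Promoter sequences of 6 sparse regions are shown, to let the ends of the distribution be read as DNA. Each runs 5′ to 3′ on the strand of its gene, from 250 bases before to 50 bases after the RefSeq start (GRCm38.p6), with every CpG in capitals. Cenpf (chr1:189688037-189688336, minus strand) and Dcaf11 (chr14:55559779-55560078, plus strand) had the lowest levels. Tuba3a (chr6:125286032-125286331, minus strand) and 1700042G07Rik (chr4:116173122-116173421, plus strand) had the highest. Arl4d (chr11:101665291-101665590, plus strand) and Mark2 (chr19:7341811-7342110, minus strand) had the smallest unadjusted p in either direction between the groups.
Cenpf: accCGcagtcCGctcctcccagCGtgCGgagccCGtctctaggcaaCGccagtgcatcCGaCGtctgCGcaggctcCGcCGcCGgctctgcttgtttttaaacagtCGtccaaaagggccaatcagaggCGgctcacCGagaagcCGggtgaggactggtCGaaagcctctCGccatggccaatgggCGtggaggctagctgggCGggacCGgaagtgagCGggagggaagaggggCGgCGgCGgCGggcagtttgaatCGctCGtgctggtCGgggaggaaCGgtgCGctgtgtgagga
Dcaf11: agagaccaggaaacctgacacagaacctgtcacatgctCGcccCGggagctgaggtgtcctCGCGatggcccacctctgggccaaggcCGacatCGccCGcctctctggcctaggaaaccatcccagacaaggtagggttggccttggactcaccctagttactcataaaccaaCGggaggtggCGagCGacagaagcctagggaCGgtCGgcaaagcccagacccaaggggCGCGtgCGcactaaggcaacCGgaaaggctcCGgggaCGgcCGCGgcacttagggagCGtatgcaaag
Tuba3a: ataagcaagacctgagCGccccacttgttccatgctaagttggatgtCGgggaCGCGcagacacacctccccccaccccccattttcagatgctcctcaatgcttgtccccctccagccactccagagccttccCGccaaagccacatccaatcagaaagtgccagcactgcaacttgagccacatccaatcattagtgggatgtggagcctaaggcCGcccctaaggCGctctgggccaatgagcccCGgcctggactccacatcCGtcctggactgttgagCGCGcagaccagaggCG
1700042G07Rik: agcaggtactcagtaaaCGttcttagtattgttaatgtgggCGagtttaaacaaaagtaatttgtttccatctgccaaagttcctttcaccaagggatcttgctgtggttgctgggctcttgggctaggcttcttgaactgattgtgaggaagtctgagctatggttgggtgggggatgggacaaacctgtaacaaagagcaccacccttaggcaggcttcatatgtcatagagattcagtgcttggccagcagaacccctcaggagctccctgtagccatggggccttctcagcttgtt
Arl4d: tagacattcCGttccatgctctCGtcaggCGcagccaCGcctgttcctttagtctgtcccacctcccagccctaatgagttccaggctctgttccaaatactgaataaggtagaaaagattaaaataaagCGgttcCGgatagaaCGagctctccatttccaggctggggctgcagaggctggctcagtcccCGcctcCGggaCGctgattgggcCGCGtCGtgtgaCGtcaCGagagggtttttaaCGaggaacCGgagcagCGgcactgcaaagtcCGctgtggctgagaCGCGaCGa
Mark2: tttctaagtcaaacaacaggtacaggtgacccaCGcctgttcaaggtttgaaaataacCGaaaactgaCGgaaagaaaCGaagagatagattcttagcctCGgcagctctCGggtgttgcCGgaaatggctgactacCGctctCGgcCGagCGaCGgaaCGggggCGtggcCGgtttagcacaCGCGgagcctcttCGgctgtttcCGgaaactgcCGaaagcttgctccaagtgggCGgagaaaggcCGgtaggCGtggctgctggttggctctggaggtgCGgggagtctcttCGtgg

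The low promoters of Cenpf and Dcaf11 held 31 and 21 CpG in 300 bases, with an observed over expected CpG ratio of 0.963 and 0.713. The high promoters of Tuba3a and 1700042G07Rik held 12 and 2 CpG, with ratios of 0.472 and 0.116. Arl4d held 22 and Mark2 25. The measured positions are given on the build mm9 and the promoters on GRCm38.p6, so whether a measured position lies inside a printed window was not determined. Where a gene has several promoter entries, as Dcaf11 and Mark2 do with 2 each, the first was used, here and for the promoter ratios below.

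The level of a region is its methylated reads over all its reads, as a mean of the 6 samples unless a group is named. Levels of the sparse regions were spread over nearly the whole scale, from 0.145% (Cenpf) to 99.1% (Tuba3a), with a median of 36.8% and quartiles of 24.9% and 54.1%. Regions with 6 to 59 positions, called denser regions here (7645 on the autosomes), had a median of 22.0%, and the 958 with 60 or more had one of 17.03%. Levels under 10% were found in 104 sparse regions (8.36%) and in 133 denser ones (1.74%). Levels of 80% or more were found in 111 sparse regions (8.92%) and in 48 denser ones (0.628%). Most sparse regions, 706 (56.8%), lay from 20% to 50%, and 234 (18.8%) from 50% to 80%. Both ends of the scale thus held a larger share of sparse regions than of denser ones.

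The median of the sparse regions was higher than that of the denser regions in all 6 samples, by 13.7 percentage points on average (SD 0.618, range 13.1 to 14.7, n = 6; exact two-sided sign-flip test, p = 0.03125, the smallest that 6 samples allow, and 0.03125 after adjustment over 4 such comparisons). The number of positions defines the classes and bears on how many of them lie at the ends of a region. The same regions were read in all 6 samples. This p is therefore no support for a difference apart from that rule. Within the class the median was lower where more positions were listed: it was 40.02% for regions with 3 positions, 33.4% with 4 and 25.3% with 5. Just outside the limits, 471 regions with 2 positions had a median of 59.4% and 361 regions with 6 positions one of 36.4%.

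**Figure D1:**
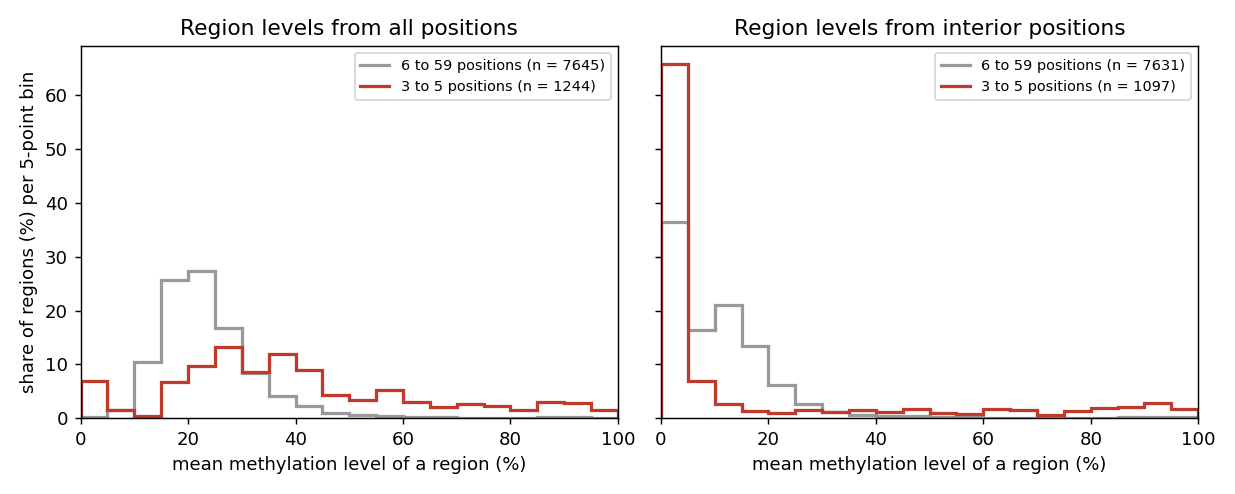
Share of regions (y axis, % per bin of 5 percentage points) by mean methylation level over 6 samples (x axis, %), from all positions (left) and from interior positions only (right). With all positions the sparse regions (red) have a median of 36.8% and the denser ones (grey) 22.0%; with interior positions the medians are 2.72% and 9.28%, and a tail of sparse regions at 80% or more remains.

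The sparse regions were short. The listed positions of a region spanned a median of 38 bp (quartiles 31 and 47 bp), 960 regions (77.2%) lay within 50 bp, and 1054 formed a single cluster in which no step exceeded 50 bp. Within a cluster, the first and last position, together with the other strand of the same CpG where it was listed, are called edge positions here, and all others interior positions. Edge positions made up 61.6% of the positions of sparse regions and 25.8% of those of denser regions.

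Edge and interior positions of the same regions had very different levels. Of 1870 interior positions, 1444 (77.2%) were under 10% and 160 (8.56%) at 80% or more, with a median of 2.38%. Of 3003 edge positions, 624 (20.8%) were under 10% and 1372 (45.7%) at 80% or more, with a median of 60.1%. Denser regions had the same contrast, with medians of 41.9% at edges and 1.78% inside. In the 875 regions with a single cluster, an interior and no strand pair, the higher end had a median of 98.6%, the lower end 16.1% and the interior 2.58%. One end was at 80% or more and the other under 50% in 637 of them (72.8%). The higher end was the one with the lower coordinate in 429 of the 875. Where both strands of a CpG were listed at the end of a cluster (236 pairs), the inner of both cytosines had a median of 97.4% and the outer 22.0%, and the inner was higher in 216 pairs (91.5%). A difference of more than 50 percentage points between the strands of one CpG was found in 146 pairs.

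**Figure D2:**
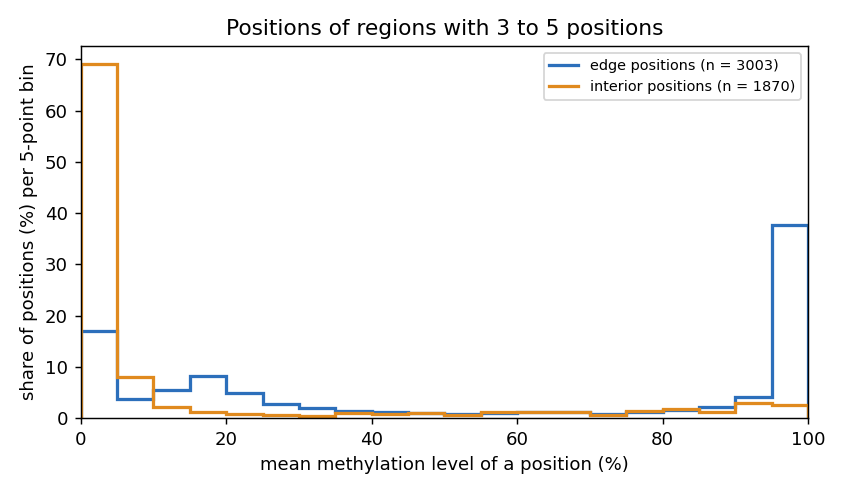
Share of positions (y axis, % per bin of 5 percentage points) by mean methylation level over 6 samples (x axis, %) in the sparse regions. Of 3003 edge positions (blue) 45.7% are at 80% or more, while 77.2% of 1870 interior positions (orange) are under 10%.

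Region levels from 20% to 50% therefore rarely came from positions that all had a middle level. Of the 706 regions from 20% to 50%, 656 (92.9%) held at least 1 position under 10% and at least 1 at 80% or more, and in only 3 did all positions lie from 20% to 80%. Over all sparse regions, 774 (62.2%) held both kinds of position, with a median region level of 30.6%. Every position was under 10% in 90 regions (7.23%, median 1.66%) and at 80% or more in 55 (4.42%, median 93.4%). The remaining 325 regions (26.1%) had a median of 61.2%. Every position lay from 20% to 80% in 8 regions (0.643%), those of Aldh1l1, E2f4, Hoxb5, Inpp5d, Krt78, Ptpn6, Stoml1 and Trim17.

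Counted over interior positions alone, 1097 sparse regions could be measured, and 147 had no interior position. Their median was 2.72% and their mean 17.3%. Of these regions, 798 (72.7%) were under 10%, 205 from 10% to 80% and 94 (8.57%) at 80% or more. Denser regions had an interior median of 9.28% and mean of 11.1%, with 45 (0.590%) at 80% or more. The interior median of sparse regions was lower than that of denser regions in all 6 samples, by 6.77 points on average, and the interior mean higher in all 6, by 6.22 points (exact two-sided sign-flip test, p = 0.03125 for each, the smallest possible). The direction of the comparison with denser regions thus depends on which positions and which summary are used. With edge positions alone the gap between the medians was 0.385 points (exact sign-flip p = 0.125), and without positions that stand alone above a low neighbour within 100 bp it was 1.55 points. The latter filter drops positions because of their own level, so the gap it leaves is no independent check. Whether the levels of edge positions come from the repaired ends of the cut fragments was not tested, since the sequence around each position was not read. The median range between the highest and lowest position of a region was 93.1 to 95.3 points over the samples in sparse regions and 100 points, the largest possible, in every sample in denser ones. The number of positions that enter a range is what defines the classes, so no test is given.

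The 8 lowest regions were those of Cenpf, a kinetochore protein of dividing cells (0.145%), Dcaf11, a substrate receptor of a ubiquitin ligase (0.284%), Pvalb, the calcium buffer of fast muscle fibres (0.370%), and H3c7, a replication-dependent histone H3 gene (0.379%), followed by Plec, a linker of intermediate filaments (0.412%), Alcam, an adhesion molecule (0.416%), Spcs3, a subunit of signal peptidase (0.430%), and Tal2, a basic helix-loop-helix transcription factor (0.446%). The Cenpf region (chr1:191510966-191513965, mm9) was at 0%, 0.870% and 0% in exercised samples 1 to 3 and at 0% in all 3 sedentary samples, at 33.1 reads per position. Its 3 positions, listed over 33 bp, were at 0.463%, 0% and 0%. The Dcaf11 region (chr14:56176866-56179865, mm9) was at 0% in every sample but sedentary 2, where it was at 1.705%. Single methylated reads set these values, and no difference between samples can be read from them.

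The 8 highest regions included 3 of genes known from the testis, 1 of the retina and 1 of the stomach. Tuba3a, a testis alpha-tubulin, was at 99.1%, 1700042G07Rik, known by its clone name, at 99.0%, Rpl10l, a testis copy of a ribosomal protein gene, at 98.2%, and Pde6c, the phosphodiesterase of cone photoreceptors, at 97.8%. Next came 4930544G11Rik at 97.8%, Ywhaz, a 14-3-3 adaptor protein made in most cells, at 97.4%, Tnp1, a transition protein of spermatid chromatin, at 97.3%, and Atp4b, the beta subunit of the gastric proton pump, at 97.3%. The Tuba3a region (chr6:125235061-125238060, mm9) was at 100%, 99.3% and 98.5% in the exercised and 100%, 97.2% and 99.4% in the sedentary samples. Its 4 positions, edges and interior alike, were at 99.2%, 99.4%, 100% and 96.9%. The 1700042G07Rik region (chr4:115843977-115846976, mm9) was at 98.9%, 100% and 96.4% in the exercised and 100%, 98.6% and 100% in the sedentary samples. Groups overlapped in both regions. The positions of Ywhaz lay in separate places, the last 3 between 1517 and 1551 bp from the first, so this level covers more than the surroundings of one cut site.

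Regions nearest to 50% and those with the widest range are given position by position. Kctd14, a potassium channel tetramerisation domain gene at 49.8%, had 3 positions at 79.0%, 0.991% and 56.9%, none of them an interior position, and over the samples it ran from 33.3% to 64.0%. Nmral1, a redox sensor (49.7%), had positions at 32.0%, 16.5% and 99.6%. Rpf2, a ribosome assembly factor (49.8%), had positions at 99.5%, 1.41%, 87.2% and 21.2%, the last pair being the strands of one CpG. Ptgr2, a prostaglandin reductase (50.04%) and Rtkn (49.8%) each held positions above 99% and under 10%. Rtkn also had interior positions at 48.8% and 42.1%, and its level was 69.9% with only positions covered by at least 20 reads. The widest ranges were in Mctp2 (positions at 100%, 0% and 18.4%), Sfrp5, a secreted Wnt inhibitor (0%, 3.98%, 2.90% and 100%), Zfp108 (23.4%, 0% and 100%), Orc5, of the origin recognition complex (11.6%, 0%, 1.35%, 5.46% and 100%), and Pmf1, a kinetochore protein (0%, 1.85%, 0.406% and 100%). In each of these 5, the position at 100% was the first or last of the region.

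Genes of skeletal muscle, the tissue sampled, were measured as 20 regions in the whole table and 7 of them were sparse. Pvalb (0.370%) and Actn2, the alpha-actinin of the Z disc (1.11%), were under 10% at every position. Pdk4, the kinase that restrains glucose oxidation, was at 42.8% but at 2.71% inside. The other 4 had higher interiors: Myl3, a slow myosin light chain, was at 45.2% with 15.6% inside, Myom1, of the M band, at 52.8% with 41.1% inside, Klhl41, a sarcomere maintenance protein, at 61.1% with 43.0% inside, and Acta1, skeletal alpha-actin, at 72.3% with 59.3% inside. These 4 interiors rest on 1 or 2 positions each. Acta1 was at 52.8%, 84.9% and 83.3% in the exercised and 97.8%, 74.2% and 40.9% in the sedentary samples, the SD being 18.1 and 28.6 points (n = 3 each). Its groups overlapped throughout, so a mean level for Acta1 is poorly set by these samples. None of the 7 passed the test between the groups described later.

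Genes of the exercise and metabolic response were sparse in 9 of 48 measured regions, and all 9 held both a position under 10% and one at 80% or more. In all 8 with an interior, the interior was under 10% (median 2.81%), as it was in 72.7% of all sparse regions with an interior position. Hk2, hexokinase of muscle, was at 19.15% with 1.14% inside. Gys1, muscle glycogen synthase, was at 27.0% with 2.11% inside, Hadhb and Acadvl, of fatty acid oxidation, at 25.6% and 31.1% with 2.90% and 4.72% inside. Angptl4, an inhibitor of lipoprotein lipase, was at 33.6% with 7.87% inside. Gadd45b, a stress response gene, was at 38.4% with 1.32% inside, and Fos, an immediate early transcription factor, at 45.3% with 3.91% inside. Il15, a cytokine made by muscle, was at 65.4%, had no interior position, and was at 98.4% with only positions covered by at least 20 reads. Of the 9, 3 were higher and 6 lower in exercised samples, with a median difference of -1.17 points, where all tested regions had one of 0.390, and none passed the test.

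Germ cell and testis genes stood at the other end. Of 29 measured regions 8 were sparse, with a median of 92.5%, and 6 of the 8 were at 80% or more, where 8.92% of all sparse regions were. Interiors were at 80% or more in 6 of 7, so these levels did not rest on edge positions. The high ones were Sycp3, of the synaptonemal complex (88.9%), Nlrp5, a maternal effect gene of the oocyte (89.3%), Stra8, which is needed for entry into meiosis (95.6%), Wfdc9 (95.8%), Hormad1, of meiotic chromosome axes (96.9%), and Tnp1 (97.3%). Prm1, a protamine of sperm chromatin, was at 63.0% with no interior position, and Tdrkh, of the piRNA pathway, was at 15.3% with 2.22% inside.

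Genes that nearly every cell uses, the ribosomal, proteasome and respiratory chain list, were sparse in 25 of 184 regions, with a median of 31.0% and an interior median of 1.24%. Interiors were under 10% in 21 of 24. The exceptions were Rpl10l (98.2% in all, 97.7% inside), Rpl3l, a ribosomal protein paralogue of striated muscle (57.7%, 39.3% inside), and Ndufb7, of complex I (35.4%, 29.5% inside). Rps6kc1, a kinase, was taken in by its name alone. Zinc finger genes were sparse in 34 of 231 regions, with a median of 24.5%, and 24 of 29 interiors were under 10%. Zfp553 was the lowest at 0.664% and Zfp992 the highest at 87.1%. Solute carriers were sparse in 35 of 216 regions, with a median of 40.4% and 21 of 32 interiors under 10%. The lowest was Slc47a1, a toxin extrusion transporter (1.47%).

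For lists of genes of other tissues, interior counts can be read beside the 72.7% of sparse regions with an interior position whose interior was under 10%. Plasma protein, liver and xenobiotic genes had 8 sparse regions, 3 of them at 80% or more at every position, Apom and Saa1 among them, and 3 of 7 interiors under 10%, as in Cyp2s1 (17.4% in all, 1.30% inside). Keratin and skin barrier genes had 8, with a median of 55.5% and 3 of 7 interiors under 10%, from Lypd3 (27.4%) to Krt86 (84.9%). Chemosensory and other G protein-coupled receptors had 14, with a median of 48.9% and 7 of 12 interiors under 10%. Among these receptors, Ptger2, a prostaglandin receptor, was at 0.525% and Tas1r3, a taste receptor, at 88.5%. Proteases and their inhibitors had 10, with a median of 45.0% and 6 of 9 interiors under 10%, from Pgap2, taken in by name though not a protease (25.1%), to Wfdc9.

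Markers of the other cell types of muscle were few. Leukocyte genes had 11 sparse regions, with a median of 40.9% and 6 of 7 interiors under 10%, as in Il11ra1 (21.0% in all, 0.860% inside), while Cd2, an adhesion receptor of T cells, was at 89.3%. Endothelial markers had 4, from Tal1, a haematopoietic and endothelial transcription factor (54.4% in all, 2.52% inside), to Aplnr, the apelin receptor (76.2%, 64.8% inside). Of their 3 interiors, 1 was under 10%. Adipocyte markers had 7, with 1 of 6 interiors under 10%, from Car3 (37.8%, no interior position) to Fabp4, a fatty acid carrier (74.7%, 68.0% inside). Fibroblast and matrix markers had 2, Col6a2 (9.48%, 0.556% inside) and Gsn (41.6%, 3.04% inside). Nerve and Schwann cell markers had 3, Tubb3 (27.7%, 1.97% inside), Snap25 (31.5%, 4.33% inside) and Gfap (68.8%, 46.7% inside). Smooth muscle and pericyte markers had 2, Cnn1 (19.2%, 4.84% inside) and Lmod1 (73.1%, 64.2% inside). In exercised samples 5 of 11 leukocyte, 3 of 4 endothelial, 2 of 7 adipocyte, 2 of 2 fibroblast, 2 of 3 nerve and 1 of 2 smooth muscle regions were higher, with median differences of -0.299, 1.36, -3.10, 4.62, 0.183 and -2.999 points. Over all sparse regions 643 of 1244 were higher, with a median of 0.129 points. No member of these 16 lists passed the test between groups. A change in the mix of cell types and a change of methylation within a cell type cannot be told apart in whole muscle.

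A RefSeq promoter was found for 954 of the sparse regions. Taken as a whole they were not CpG-poor by comparison with all genes: the median window of 300 bases held 16 CpG with an observed over expected ratio of 0.664, against 7 CpG and 0.389 over the 27025 genes of the promoter table. They were poorer than the denser regions, whose promoters held 23 CpG with a ratio of 0.792. A ratio of at least 0.6 was reached by 560 of the 954 (58.7%), by 79.4% of denser regions and by 36.5% of all genes. The motif CCGG, which reads the same on both strands, was held by 77.0% of the sparse, 88.2% of the denser and 52.6% of all promoters. The motif TATAAA, searched on both strands, was held by 7.13%, 6.18% and 14.2%.

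Within the sparse regions the promoters of highly methylated genes had fewer CpG. The median observed over expected ratio was 0.733 where every position was under 10%, 0.710 where low and high positions were mixed, 0.439 in the remaining regions and 0.316 where every position was at 80% or more. A ratio under 0.48 was found for 69.0% of the last and for 10.8% of the first. Across genes, Spearman's correlation between level and ratio was -0.343 (n = 954 regions), and with interior levels -0.374 (n = 848). Genes are not independent replicates, both values share the same 6 libraries on one axis, and these are descriptions only.

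**Figure D3:**
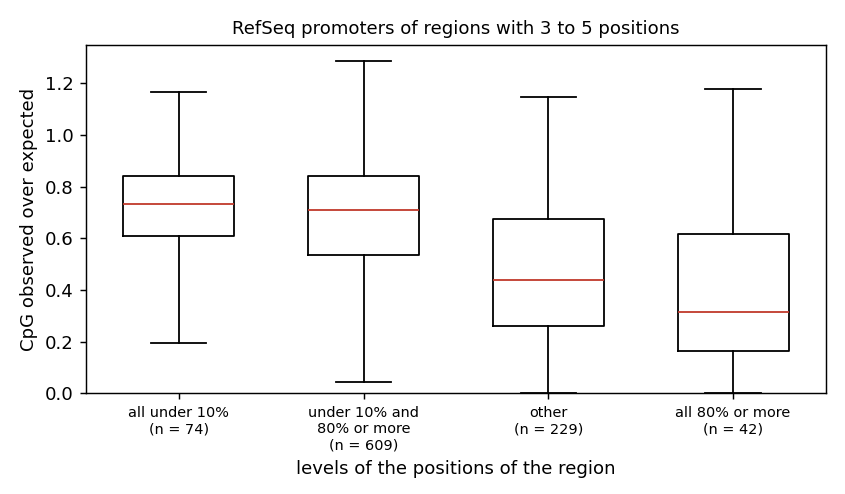
Observed over expected CpG ratio of the RefSeq promoter (y axis) for sparse regions grouped by the levels of their positions (x axis); boxes show quartiles, red lines medians, and whiskers the full range. The median falls from 0.733 for regions with every position under 10% to 0.316 for those with every position at 80% or more.

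In 9 of 10 summaries of the sparse regions, the means of exercised and sedentary samples differed by less than the SD of either group; the exception was the interior median. The median level was 36.4%, 35.9% and 35.2% in the exercised samples, against 35.7%, 35.9% and 34.9% in the sedentary ones, or 35.8% ± 0.610 and 35.5% ± 0.526 (SD, n = 3 each; exact permutation p = 0.4). The mean level was 40.4% ± 0.656 and 40.3% ± 0.380 (exact permutation p = 0.9, n = 3 each). The share of regions under 10% was 8.12% ± 0.213 and 8.01% ± 0.380 (exact permutation p = 0.7, n = 3 each), and the share at 80% or more 9.49% ± 0.161 and 9.46% ± 0.603 (exact permutation p = 1, n = 3 each). Groups overlapped in each of these measures. With 3 against 3 samples the smallest two-sided p is 0.1, so this design cannot reach 0.05 for such a value. All adjusted p were 1 over 10 such tests.

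The interior median was 2.04%, 3.61% and 2.94% in the exercised and 2.38%, 1.82% and 1.67% in the sedentary samples, or 2.87% ± 0.790 and 1.96% ± 0.376 (SD, n = 3 each; exact permutation p = 0.2). The difference of 0.910 points was larger than either SD, but exercised sample 1 lay within the sedentary range. The interior mean was 17.4% and 17.2% (exact permutation p = 0.6, n = 3 each) and the edge mean 55.3% and 55.2% (exact permutation p = 1, n = 3 each). The gap to the denser regions differed between the groups by -0.0978 points (exact permutation p = 0.8, n = 3 each).

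**Figure D4:**
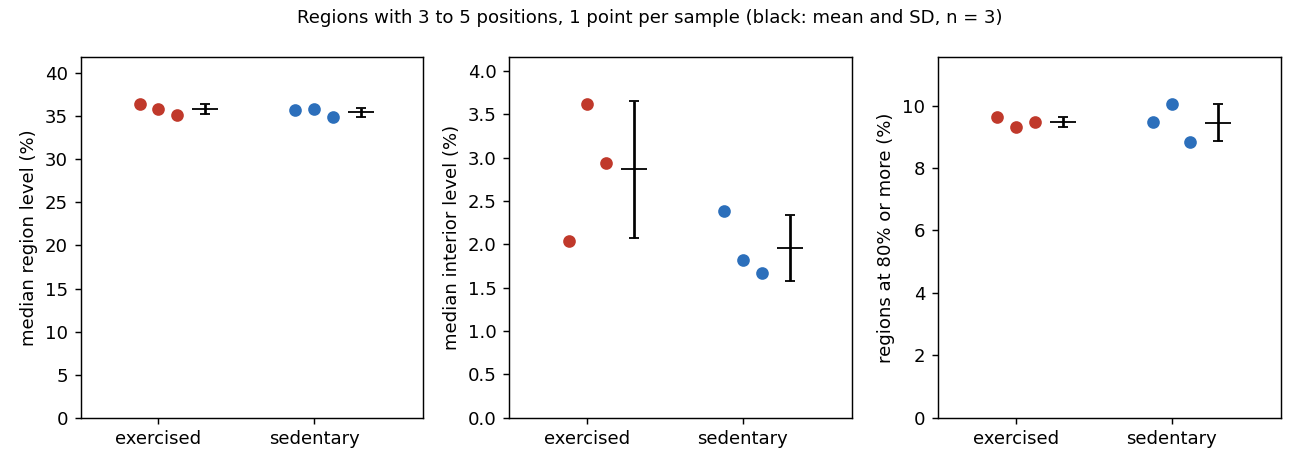
Median level of the sparse regions, median of their interior levels, and share of them at 80% or more (y axes, %), 1 point per sample, with the mean and SD of each group in black (n = 3). The median levels run from 34.9% to 36.4% and the groups overlap in all 3 panels.

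For single regions, methylated and unmethylated reads were compared with edgeR's quasi-likelihood test over all 10021 regions with at least 3 positions. No sparse region passed a Benjamini-Hochberg adjusted p of 0.05 (0 of 1244; smallest adjusted p = 0.9998 in edgeR), and neither did any region of the whole table (0%). At an unadjusted p under 0.05 there were 66 sparse regions (5.31%), 30 higher (2.41%) and 36 lower (2.89%) in exercised samples, where 2.52% of all tested regions passed (1.56% higher and 0.968% lower). The balance of directions turned with the positions used. Once stand-alone positions were left out, 50 of 1233 sparse regions were higher and 32 lower. Of 1072 with interior positions only, 47 were higher and 32 lower. The split over all tested regions is not given for these settings, so the turn cannot be called particular to sparse regions. In 114 sparse regions (9.16%) the groups did not overlap, 57 in each direction (4.58% and 4.58%), against 7.25% of all tested regions (4.91% higher and 2.35% lower). limma made 0 calls after adjustment. Fisher's exact test on pooled reads, which ignores the spread between samples, made 44 in the 1244 sparse regions. Its share over all tested regions is not given, so these 44 cannot be called particular to sparse regions. The authors' deposited table gave an unadjusted p under 0.05 for 115 of 4539 positions of sparse regions (2.53%) and for 3.13% of all positions with a p.

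Differences of single sparse regions were wider and more evenly signed than in the whole table. Exercised samples were higher in 643 and lower in 601 of them, with a median difference of 0.129 points, against 6117 and 3904 and a median of 0.390 over all tested regions. The median size of the difference was 2.22 points, below the median SD within groups of 3.804 and the median counting error of a sample of 3.65 points. A difference of more than 10 points was found in 23 sparse regions (1.85%) and in 48 of all tested (0.479%). By profile, an unadjusted p under 0.05 was found in 13 of the 55 regions with every position at 80% or more (23.6%), in 10 of the 90 with every position under 10% (11.1%), in 18 of the 774 mixed regions (2.33%) and in 25 of the 325 others (7.69%). Over all tested regions 2.52% had such a p, a share that is not split by profile. Near the ends of the scale a few reads can set such a p. Dcaf11, at 0% in every sample but sedentary 2 (1.705%), had an unadjusted edgeR p of 0.0494. The shares at both ends are therefore not read as a trait of these regions. The shares without overlap of the groups did not follow the same order. They were 16.4% where every position was at 80% or more and 6.67% where every position was under 10%. In the mixed regions 8.66% did not overlap and in the others 9.85%, against 9.16% of all sparse regions. None of these shares was compared by a test.

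The regions with the smallest unadjusted p, 8 in each direction, are described by their levels. None of their differences passed the adjustment (edgeR, adjusted p of at least 0.9998 for each). Arl4d, a small GTPase of membrane traffic (chr11:101524855-101527854, mm9), was at 3.43%, 5.31% and 6.17% after exercise and at 1.38%, 0% and 0% in sedentary samples, or 4.97% ± 1.40 against 0.460% ± 0.796 (SD, n = 3 each). The groups did not overlap, and all 5 of its positions were low, from 1.73% to 5.39%. Psmf1, a proteasome inhibitor, was at 49.0%, 44.2% and 42.2% against 35.6%, 35.3% and 33.8%, with no overlap. Its positions were at 17.4%, 4.21% inside and 98.5%.

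Taf6l, a subunit of histone acetyltransferase complexes, was at 44.1%, 43.0% and 37.9% against 33.3%, 27.8% and 29.9%, with no overlap, but the mean of its 4 positions, which does not weight them by reads, differed by only 3.88 points. Cstdc6, a cystatin domain gene, was at 80.3%, 80% and 82.9% against 72.4%, 69.7% and 76.3%. Ccdc73 was at 100%, 96.8% and 97.2% against 85.2%, 92.0% and 90.9%. Neither of the last 2 genes had overlapping groups. Mitf, the transcription factor of melanocytes, which has other isoforms elsewhere, was at 25.4%, 11.8% and 0% against 2.22%, 1.02% and 0%. Its groups overlapped, and its difference was 4.80 points without exercised sample 1 and 17.5 without exercised sample 3. Hsd17b2, a steroid dehydrogenase, was at 86.4%, 90.9% and 76.9% against 68.8%, 67.4% and 75.8%. Klc4, a kinesin light chain, was at 98.3%, 94.5% and 96.6% against 85.1%, 92.5% and 86.3%, and neither it nor Hsd17b2 overlapped.

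Among those lower in exercised samples, Mark2, a kinase that regulates microtubules (chr19:7368928-7371927, mm9), was at 59.04%, 63.3% and 64.3% against 73.9%, 77.2% and 72.8%, with no overlap. Its 5 positions lay between 49.0% and 88.2%. Mark2 has 2 promoter entries, and the first, printed earlier, is CpG-rich, with a ratio of 1.04. Whether the measured positions lie in or near that promoter was not determined. Saa1, an acute phase protein of liver, was at 90.1%, 86.9% and 82.8% against 97.9%, 97.2% and 92.1%. Efcab9, of the calcium channel of sperm, was at 89.9%, 84.2% and 90.1% against 95.8%, 93.3% and 97.2%. The groups of Saa1 and Efcab9 did not overlap.

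Arhgef10l, a guanine nucleotide exchange factor, was at 85.9%, 96.4% and 85.5% against 97.9%, 98.2% and 100%, with no overlap. Fam204a was at 2.70%, 6.45% and 3.94% against 12%, 9.43% and 18.4%, also with no overlap. Of its 3 positions the last was at 29.2% and the others at 2.18% and 4.00%, and without positions that stand alone above a low neighbour the difference was -1.13 points. Muc20, a mucin, was at 83.3%, 82.4% and 80.8% against 88.6%, 90.3% and 95.1%. Slc2a5, the fructose transporter, was at 72.7%, 66.9% and 71.5% against 80%, 80% and 76.6%. Wfdc9 was at 90.2%, 87.5% and 98.2% against 98.7%, 100% and 100%. None of these last 3 overlapped, and in Wfdc9 the nearest samples of the groups were 98.2% and 98.7%.

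The sizes of several of these differences depended on which positions were read. With interior positions only, the difference was -1.23 points in place of -7.39 for Efcab9, -4.59 in place of -8.50 for Slc2a5, 5.63 in place of 8.47 for Klc4, 2.77 in place of 4.51 for Arl4d and -4.12 in place of -8.92 for Fam204a. It was larger inside for Hsd17b2 (21.4 in place of 14.1), Ccdc73 (13.2 in place of 8.63), Wfdc9 (-14.1 in place of -7.57) and Arhgef10l (-15.04 in place of -9.44). With edge positions only it was 2.84 in place of 8.26 for Cstdc6, -4.33 for Wfdc9 and 7.14 for Arl4d, and with unweighted means 4.70 for Cstdc6 and -5.63 in place of -9.16 for Muc20.

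**Figure D5:**
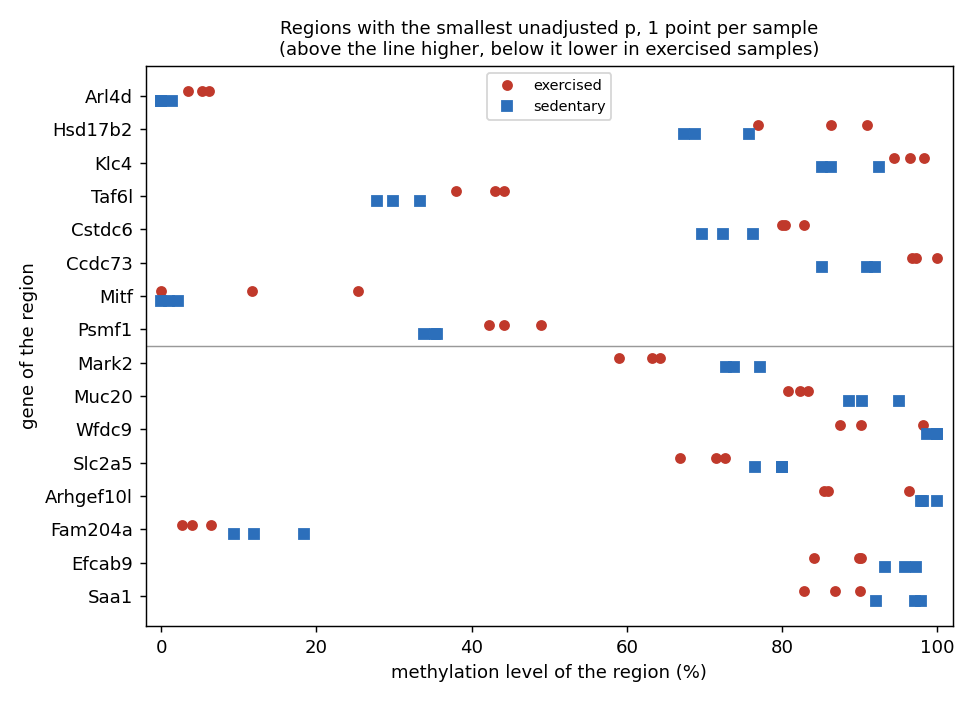
Methylation level (x axis, %) of the 16 regions with the smallest unadjusted p, 8 per direction (y axis, gene), 1 point per sample (red circles exercised, blue squares sedentary). The groups are separate in all but Mitf, where exercised values run from 0% to 25.4%, and no difference passed the adjusted threshold.

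Depth limits what a single sparse region can show. Reads over the members summed to between 131860 in sedentary sample 3 and 260152 in sedentary sample 2, or 1.23% to 1.44% of the reads of a sample, with a median of 22 to 47 reads per position. The labels name no molecular identifiers, and counting errors take each read as its own molecule. The spans of 66 sparse regions (5.31%) overlap another region, but each position is listed under 1 region only, and 6 genes have 2 sparse regions.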

How the data were processed

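RRBS was measured in quadriceps DNA of 3 exercised and 3 sedentary samples. Tools named by the submitters' processing notes are Bismark 0.7.7, Bowtie 0.12.9, cutadapt 1.0, Trim Galore 0.2.5, and the build mm9; no settings were given. The authors deposited, per position and sample, a methylated fraction and a count of covering reads, which was at least 10 at every position. Fraction times count came out whole within 0.00236 of a read and gave the methylated reads. Each position also has the authors' own p-value, class and difference between groups. The placement of regions relative to genes was not stated, and no mm9 genome or annotation was used.

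Reads were summed over a region, and levels are methylated over all reads. The edgeR 4.0.16 quasi-likelihood test (R 4.3.3; a term per sample and one for the group, no dispersion trend, Benjamini-Hochberg at 0.05) was fitted on all regions with at least 3 positions and tested on simulated data. Summaries with a single number for each sample went into exact two-sided permutation or sign-flip tests (Python 3.11.15, scipy 1.17.1). Symbols came from RefSeq tables of GRCm38.p6. Members and the 16 gene lists were chosen with earlier results of these data known, and some lists were matched by name prefix. Genes named are the 8 smallest unadjusted p per direction, the 8 lowest and 8 highest levels at 20 reads or more per position, the 5 nearest 50%, the 5 widest ranges, all muscle and exercise genes and the extremes of the other lists, except 1 that is not reported here; others named in a list were added after their values were seen. Alternatives were a coverage of at least 20, no stand-alone positions (a level of at least 10% beside a neighbour within 100 bp under 10%), merged strands, unweighted means, a replicate block, limma 3.58.1, Fisher's exact test, each number of positions alone, each sample left out, and, added after seeing the data, interior or edge positions only. Deviations from the group mean correlated at -0.00874, -0.164 and 0.00128 between same-numbered samples. With 3 samples per group this cannot tell whether the numbers pair the samples, and the block is not read as a pairing.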

Additional observations from a re-analysis of the deposited data

How the results depend on the processing

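No sparse region passed the adjusted threshold in edgeR or limma under any alternative run, while Fisher's exact test called 44. The differences of the 16 regions with the smallest p kept their direction in all 195 recomputations, though not their size. These regions were chosen by p from the same data. Where the groups are separate, as in all but Mitf, leaving out 1 sample cannot turn the sign. The kept directions are therefore no support for these differences. Recomputed levels of named regions moved by more than the SD in 116 cases, as in Il15 (65.4% to 98.4%), Rtkn (49.8% to 69.9%) and Pmf1 (19.01% to 0.768%) at a coverage of at least 20. These were 36 with interior positions, 32 with edge positions, 26 without stand-alone positions, 13 with unweighted means and 9 at the higher coverage. The other 684 moved by less, but many of them could not have moved more. Merged strands leave the summed reads of a region as they are, and leaving out 1 of 6 samples shifts a mean by less than the SD. The 684 are therefore no measure of stability. Unadjusted calls, 66 of 1244 in all, were 31 of 704 regions at a coverage of at least 20 and 43 of 1243 with edge positions. They were 27 of 452, 25 of 443 and 14 of 349 with 3, 4 or 5 positions alone. Fisher's exact test made 149 of 1244, and 52 to 80 were made with 1 sample left out (1242 to 1244 tested). With the replicate block there were 74 unadjusted calls of 1244, and whether the numbers pair the samples was not determined. Regions without overlap, 114 of 1244 in all, were 63 at the higher coverage, where fewer regions were measured. They were 39 of 452, 43 of 443 and 32 of 349 with 3, 4 or 5 positions. With 1 sample left out they were 208 to 243, where fewer samples are compared. For these alternatives the share over all tested regions is not given, so the counts show no change particular to sparse regions.

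The gap of sparse to denser medians was -6.77 points with interior and 0.385 with edge positions, 1.55 without stand-alone positions, 3.92 with 5 positions alone, and 13.5 to 13.8 with 1 sample left out, where exact tests allow no p under 0.0625. The gap of ranges, -5.94 in all, was then -6.19 to -5.74; the denser range is at its ceiling, which fixes the sign. The median level was 2.72% inside, 58.0% at edges, and 40.02%, 33.4% and 25.3% with 3, 4 or 5 positions. It was 3.596% without stand-alone positions, a filter that drops positions by their own level. With merged strands it was 33.2%, but over another set of regions. There the limits of 3 to 5 were applied after merging, which gave 1772 regions.

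Group differences near 0 changed sign. The mean level differed by -0.0791 points at edges, -0.0448 with 4 positions and -0.283 to 0.372 with 1 sample left out. The share under 10% differed by -0.0304 inside, 0 with 3 positions, -0.0955 with 5 and -0.0402 to 0.322 with 1 sample left out. The share at 80% or more differed by -0.519 at the higher coverage and by -0.113 with merged strands, over the 1772 regions of that setting. It differed by -0.0268 with unweighted means, -0.122 inside, -0.429 at edges, and -0.376 and -0.287 with 4 and 5 positions. With 1 sample left out it differed by -0.281 to 0.322. The gap to denser regions differed between groups by 0.472 at the higher coverage, 0.247 without stand-alone positions, 0.674 inside, 0.206 and 0.344 with 3 and 5 positions, and -0.441 to 0.377 with 1 sample left out. The median difference over regions was -0.0541 at edges and -0.172 to 0.385 with 1 sample left out. The causes were not tested. Counting regions with identical position sets once was not run, since no position is listed in 2 regions.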
